A study of Mus musculus with 2 samples.

Results

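The cycling crypt epithelial nuclei of the mouse colon were studied here, as 1156 of 21034 nuclei in 2 single-nucleus RNA libraries. They comprised 630 of 12146 nuclei from Pink1 knockout (KO) colon and 526 of 8888 nuclei from wild-type (WT) colon. Each member carried at least 3 UMIs, from at least 2 genes, over 10 genes of mitosis and DNA replication: Top2a, Mki67, Cenpf, Cenpe, Knl1, Kif15, Esco2, Neil3, Kif23 and Prc1. A UMI is a molecular barcode, so that 1 UMI stands for 1 captured RNA molecule. Each member also had at least 1 UMI of the epithelial adhesion genes Epcam or Cdh1, no UMI of Col3a1, Myh11, Ptprc or Pecam1, and less than 0.5% of its UMIs from the goblet mucin Muc2. A cycling nucleus that was rich in Muc2, or too shallow to show an epithelial UMI, therefore fell outside the set.

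The KO library held pooled, FACS-sorted nuclei from the colons of 3 male C57BL/6 mice lacking Pink1, aged 15 weeks, and the WT library those of 3 male C57BL/6 mice of the same age. The product of Pink1 is a mitochondrial kinase that tags failing mitochondria so that the cell can digest them. With 1 library per genotype, and batch labels that follow the genotypes, genotype, library and batch cannot be told apart. No comparison below therefore carries a p-value, and all intervals are exact 95% intervals that cover counting error only. Members held a median of 1890 UMIs and 1274 genes in KO and 1954 UMIs and 1293 genes in WT, with 1314627 and 1177890 UMIs in all.

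The colonic epithelium is renewed from its crypts. Stem cells at the crypt base, kept by Wnt signals and marked by the receptor Lgr5, give rise to rapidly dividing progenitors, which stop dividing and mature into absorptive colonocytes or secretory cells as they move up. A dividing cell switches on its genes in waves. E2F factors drive the genes of DNA replication as S phase begins, and a later wave, driven by the B-MYB and FOXM1 machinery together with NF-Y, supplies the mitotic spindle, the kinetochores that tie chromosomes to it, and the ring that splits the cell.

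The members were selected on the counts of these 10 genes, so the genes' levels in members are a description. Their summed level was 5835 CPM (counts scaled to the same UMI total in every group) in KO members and 6037 CPM in WT members. The remaining epithelial nuclei that met the same Epcam, Cdh1, Muc2 and exclusion conditions, 3854 in KO and 2722 in WT and called other epithelial nuclei here, held 135.2 and 137.7 CPM. A member had a median of 9 rule-gene UMIs in KO and 10 in WT, while 61 KO and 47 WT members had exactly 3. At that edge, a list of 43 S phase genes outside the rule summed to 4036 CPM in KO and 3553 CPM in WT. In the nuclei just outside it, with exactly 2 rule-gene UMIs (152 in KO and 135 in WT), the same list summed to 2922 CPM in KO and 1955 CPM in WT, against 864 and 901.8 CPM in nuclei with no rule-gene UMI. A list of 49 G2/M genes showed the same order, with 3295 and 2881 CPM just inside, 2377 and 1742 CPM just outside and 1394 and 1356 CPM with no rule-gene UMI. The threshold thus lay within a continuous range, and nuclei just below it carried S phase RNA above the level of nuclei with none.

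Other cycling nuclei missed the set by its other conditions. In KO 227 and in WT 194 nuclei met the cycling condition but had no Epcam or Cdh1 UMI and no UMI of an excluded gene. Another 53 KO and 30 WT cycling nuclei met every condition but the Muc2 ceiling, and 77 KO and 58 WT nuclei had an epithelial and an excluded UMI together. The libraries shared 28 barcodes, of which 0 were KO members, 2 were WT members and 0 were members in both. Mitochondrial UMIs made up 0.37% of all UMIs of KO members and 0.178% of those of WT members, and 8.41% of KO and 25.5% of WT members had none. The highest doublet scores marked 64 KO members (10.2%) and 44 WT members (8.37%), against 6.41% and 5.36% of other epithelial nuclei. The part of these library differences in the comparisons below was not tested.

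The label was checked on genes that the rule did not name. Cdk1, the kinase that starts mitosis, was 18.1-fold (KO) and 14.5-fold (WT) higher in members than in other epithelial nuclei. The spindle factor Tpx2 was 28.5-fold and 31.5-fold higher, and Ccna2, the cyclin A of S and G2 phase, 12.7-fold and 24.9-fold higher. The crypt genes pointed the same way at a smaller scale. Lgr5 was 1.95-fold (KO) and 2.31-fold (WT) higher, and Smoc2, another crypt-base gene, 2.20-fold and 2.70-fold. After thinning each nucleus to 1000 UMIs, which left out 51 KO and 50 WT members, 5.01% of KO and 4.83% of WT members had an Lgr5 UMI, against 0.782% and 0.474% of non-epithelial nuclei. Those non-epithelial nuclei, 2075 in KO and 1252 in WT, carried an excluded gene and no Epcam or Cdh1 UMI, and their median depth was 1263 and 1260 UMIs. The unthinned Lgr5 shares were 7.78% of KO and 9.12% of WT members. Markers of 7 other cell types summed to between 5.34 and 54.2 CPM in KO members and between 11.1 and 38.3 CPM in WT members. Of 11 immune markers, 7 in KO and 5 in WT members were at 0, and the excluded genes Col3a1, Myh11, Ptprc and Pecam1 were at 0 by the rule. In non-epithelial nuclei the same lists summed to between 201.9 and 4339 CPM in KO and between 191.7 and 3688 CPM in WT. These levels fit the label, but the division genes are transcribed together with the rule genes, and the stromal and immune levels were largely set by the exclusions, so they are a description and no test of it.

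The rest of the division programme was high in members across all its parts, in both libraries. Of 262 cell-cycle genes outside the rule, 236 had at least 50 counts in KO, and 214 of these were at least 1.5-fold higher in members than in other epithelial nuclei while 2 were at least 1.5-fold lower. In WT, 206 of 227 were higher and 1 was lower. Over all genes measured as well, 20.9% of 10683 were at least 1.5-fold higher and 11.8% at least 1.5-fold lower in KO, and 20.7% of 10237 were higher and 10.6% lower in WT. The median log2 ratio of the cell-cycle genes was 2.45 in KO and 2.32 in WT, beside 0.16 and 0.18 over all genes. Since these genes are transcribed together with the 10 that chose the nuclei, the counts describe the members and test nothing.

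Mitotic genes stood furthest above other epithelial nuclei. All 29 measured spindle and cytokinesis genes were at least 1.5-fold higher in each library, with a median log2 ratio of 4.55 in KO and 4.30 in WT. Anln, which encodes the anillin scaffold of the contractile ring, had 220 counts in 630 KO members against 20 in 3854 other KO nuclei, and 189 in WT members against 16 in other WT nuclei. This made it 60.0-fold (KO) and 54.2-fold (WT) higher. Kif11, the motor that pushes spindle poles apart, was 39.3-fold and 37.7-fold higher. Iqgap3 had 113 counts in KO members against 6 in other KO nuclei, and 110 in WT members against 2 in other WT nuclei. Depdc1a had 81 counts against 5 in KO, and 58 counts against 0 in WT, which puts Depdc1a at least 88.7-fold higher in WT members when 3 counts are taken as the floor of the other nuclei. The mitotic kinases and their regulators were higher in 19 of 19 cases in KO and 20 of 20 in WT. Bub1, a kinase of the spindle checkpoint, was 91.9-fold and 67.3-fold higher, and Aurkb, the kinase that corrects faulty chromosome attachments, 55.9-fold and 47.0-fold. Kinetochore genes were higher in 30 of 31 cases in KO and 27 of 28 in WT. Hjurp, the chaperone that loads the centromere histone Cenpa, combined a high count with a smaller fold. It had 1443 counts in KO and 1432 in WT members and was 3.17-fold and 3.03-fold higher there.

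Genes of DNA synthesis were also higher, by less. The replication fork list was higher in 25 of 25 cases in KO and 24 of 24 in WT, with a median log2 ratio of 1.96 and 2.00. Origin licensing, which loads the MCM helicase on DNA, was higher in 17 of 18 cases in KO and 14 of 16 in WT, DNA repair in 22 of 23 and 21 of 22, and nucleotide synthesis in 9 of 11 and 8 of 11. Condensin and cohesin genes, many of which serve resting nuclei as well, were higher in 14 of 19 cases in each library. The E2F and cell-cycle entry list was the most mixed of the division lists. Of its measured genes, 18 of 28 were higher and 2 lower in KO, and 18 of 26 were higher and 1 lower in WT. In both libraries the plot of members over other epithelial nuclei shows the spindle, kinetochore, kinase and repair lists furthest from 0, and the cell-cycle entry and condensin lists closest to it among the division lists.

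**Figure D1:**
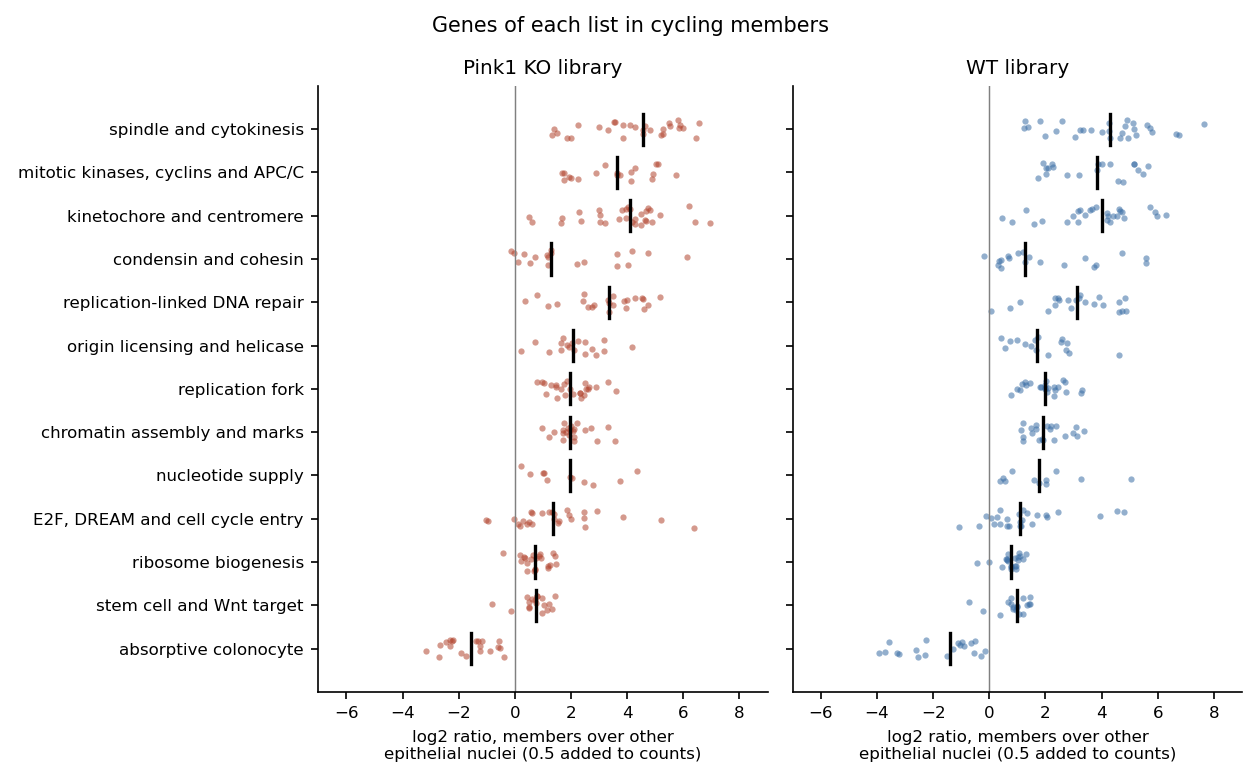
Log2 ratio of members over other epithelial nuclei (horizontal axis, with 0.5 added to counts) for the genes of each list (rows), KO in the left panel and WT in the right; each point is a gene and each black bar the median of its list. The spindle bar sits at 4.55 in KO and 4.30 in WT, while the absorptive bar sits at -1.56 and -1.40.

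Outside the division programme, members had more crypt RNA and less RNA of absorptive and hormone cells than other epithelial nuclei. Goblet products differed by library, summing to 0.810 of other epithelial nuclei in KO members and 1.22 times their level in WT members. Of 18 measured stem cell and Wnt target genes, 12 in KO and 15 in WT were at least 1.5-fold higher in members. Cd44, a Wnt target and hyaluronan receptor, was 2.47-fold and 2.66-fold higher, and Ephb3, a receptor that positions crypt cells, 2.35-fold and 2.54-fold. Prom1 was the 1 lower member of that list, at 0.571 of the other nuclei in KO and 0.607 in WT. Ribosome biogenesis genes were higher in 14 of 22 cases in KO and 18 of 21 in WT. Genes of absorptive colonocytes were lower in 17 of 20 cases in KO and 16 of 20 in WT, with a median log2 ratio of -1.56 and -1.40. Slc26a3, the chloride exchanger of surface colonocytes, stood at 0.201 and 0.170 of the level in other nuclei. All measured enteroendocrine markers were lower, 8 of 8 in KO and 7 of 7 in WT. Chga, the granule protein chromogranin A, had 5 counts in KO members against 403 in other KO nuclei, and 0 in WT members against 157 in other WT nuclei, at least 11.4-fold lower in WT when 3 counts are taken as the floor. The glucagon gene Gcg had 0 counts in KO members against 246 in other KO nuclei (at least 15.0-fold lower by the same floor), and 1 in WT members against 158. Tph1, which makes serotonin, had 3 counts in KO members against 411 in other nuclei, and 1 against 148 in WT. Hormone-cell RNA was thus near the limit of detection in members at this depth.

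Members carried markers of both crypt-base profiles, a set led by Dmbt1 and a set led by Fut9. Without thinning, the Dmbt1 set was seen alone in 315 of 630 KO members and in 39.0% of WT members. The Fut9 set was seen alone in 18.6% of KO and 23.8% of WT members, both sets in 16.0% and 13.1%, and neither in 15.4% and 24.1%. At 1000 UMIs, 55.4% of KO and 40.1% of WT members had a UMI of the Dmbt1 set, against 11.3% and 10.1% of non-epithelial nuclei. Other epithelial nuclei came close to members, at 48.4% in KO and 38.8% in WT, so the Dmbt1 set was not particular to members. For the Fut9 set the shares were 29.4% and 29.2% in members and 15.4% and 16.0% in other epithelial nuclei. Dmbt1 encodes a secreted mucosal scavenger protein and Fut9 a fucosyltransferase. Since Dmbt1 itself was higher in KO, as given further on, these shares do not compare the numbers of cells between the libraries. Goblet products in members were near their level in non-epithelial nuclei. They summed to 1127 CPM in KO and 1408 CPM in WT members, beside 1151 and 1318 CPM in non-epithelial nuclei, and the shares of thinned nuclei with Zg16, a goblet lectin, were 12.9% and 8.61% in members beside 13.8% and 8.65% in non-epithelial nuclei.

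Members were divided by phase with the S and G2/M lists, which hold none of the 10 rule genes. At 1000 UMIs per nucleus, 192 of 579 KO members (33.2%, interval 29.3 to 37.2) and 130 of 476 WT members (27.3%, 23.4 to 31.6) had more S than G2/M UMIs. G2/M UMIs led in 329 KO (56.8%) and 291 WT members (61.1%), and 58 KO and 55 WT members were tied. The share with more S UMIs was 1.21 times as high in KO as in WT, with an interval of 0.967 to 1.53 that includes 1. At 500 UMIs the ratio was 0.961, and the unthinned shares were 31.1% in KO and 27.0% in WT. Both libraries thus held mostly G2/M-leaning members, under a rule whose genes mostly belong to mitosis. The 2 sums were compared as they stood, over 43 S and 49 G2/M genes, with no baseline taken off. Epithelial nuclei with no rule-gene UMI also held more G2/M than S phase RNA, at 1394 against 864 CPM in KO and 1356 against 901.8 CPM in WT. The majority therefore does not measure the share of members in each phase. The nuclei held a mean of 5.08 S and 7.14 G2/M UMIs in KO and 4.31 and 6.80 in WT, so that single calls rest on few molecules, and free RNA can add to either sum.

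Within members the rule genes followed the order of the cycle. Cenpf was 2.72-fold (KO) and 2.49-fold (WT) higher in G2/M-leaning than in S-leaning members, and Prc1, which bundles microtubules between separating chromosomes, 2.32-fold and 2.53-fold. The kinetochore motor Cenpe was 2.01-fold and 2.42-fold higher. At the other end stood Esco2, the acetyltransferase that ties sister chromatids together during replication, at 1.14-fold and 1.28-fold. The DNA glycosylase Neil3 stood at 1.41-fold and 1.02-fold. G2/M-leaning members had a median of 14 rule-gene UMIs in KO and 13 in WT, against 7 in S-leaning members of each library, at similar median depths of 1967 and 2066 UMIs against 1914 and 2255 UMIs.

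**Figure D2:**
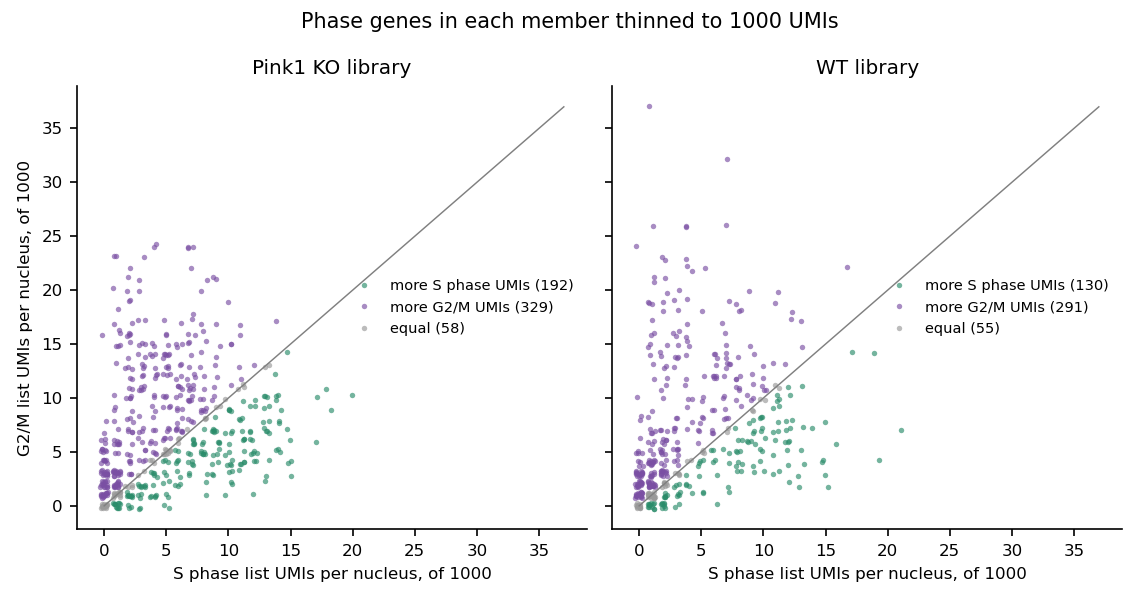
UMIs of the S phase list (horizontal axis) against UMIs of the G2/M list (vertical axis) in each member thinned to 1000 UMIs, KO in the left panel and WT in the right; points are nuclei, slightly jittered, coloured by the list that led, and the line marks equal counts. G2/M UMIs led in 329 KO and 291 WT members, and the cloud runs without a gap from one side of the line to the other.

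The promoters of most rule genes carried the CHR letters associated with late cell-cycle genes. RefSeq sequences on GRCm38.p6, from 250 bases before to 50 after the annotated start, were found for 9 of the 10 rule genes and searched on both strands for 4 motifs. These were CHR (TTTGAA or TTCGAA), an element of mitotic genes, CCAAT, the box bound by NF-Y, E2F (TTTCCCGC, TTTGGCGC, TTTCGCGC or TTTGCCGC) and the E-box CACGTG. A CHR match was present in 8 of 9 rule genes (88.9%) and in 19.4% of all 27025 promoters. CCAAT was present in 6 of 9 (66.7%) and in 37.9% of all, and E2F in 1 of 9 (11.1%) and in 2.32% of all. The E-box was in 0 of 9 and in 7.24% of all. Beyond the rule genes, the G2/M list had CHR in 31 of 42 promoters (73.8%) and E2F in 2 (4.76%), while the S list had CHR in 5 of 31 (16.1%) and E2F in 11 (35.5%). CCAAT did not separate them, with 31 of 42 promoters (73.8%) in the G2/M list and 22 of 31 (71.0%) in the S list. Spindle genes held CHR in 20 of 27 promoters (74.1%), origin licensing genes in 6 of 15 and replication fork genes in 2 of 22 (9.09%). Shown here are 4 rule genes with different responses in KO members, and 2 replication genes for contrast. Capitals mark the CHR, CCAAT and E2F matches.
Cenpf, chr1:189688037-189688336, minus strand: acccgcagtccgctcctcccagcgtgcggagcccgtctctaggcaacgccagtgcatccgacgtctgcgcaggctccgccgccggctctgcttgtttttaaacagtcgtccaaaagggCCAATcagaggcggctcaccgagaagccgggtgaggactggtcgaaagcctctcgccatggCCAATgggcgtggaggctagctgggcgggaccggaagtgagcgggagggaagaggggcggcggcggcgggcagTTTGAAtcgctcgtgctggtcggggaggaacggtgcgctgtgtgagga
Mki67, chr7:135716330-135716629, minus strand: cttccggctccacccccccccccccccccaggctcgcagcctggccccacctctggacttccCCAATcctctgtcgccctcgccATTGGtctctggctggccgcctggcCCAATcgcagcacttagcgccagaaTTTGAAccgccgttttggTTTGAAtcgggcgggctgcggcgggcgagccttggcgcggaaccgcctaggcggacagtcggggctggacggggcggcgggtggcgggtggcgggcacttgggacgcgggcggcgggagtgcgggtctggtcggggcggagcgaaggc
Top2a, chr11:99024140-99024439, minus strand: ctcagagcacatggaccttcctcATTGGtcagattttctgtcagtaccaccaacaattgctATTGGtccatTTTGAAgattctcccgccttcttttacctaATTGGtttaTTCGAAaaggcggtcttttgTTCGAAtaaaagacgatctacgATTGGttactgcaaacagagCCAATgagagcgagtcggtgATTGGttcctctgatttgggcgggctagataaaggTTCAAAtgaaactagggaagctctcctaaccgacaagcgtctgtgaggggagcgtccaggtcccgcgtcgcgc
Kif15, chr9:122950831-122951130, plus strand: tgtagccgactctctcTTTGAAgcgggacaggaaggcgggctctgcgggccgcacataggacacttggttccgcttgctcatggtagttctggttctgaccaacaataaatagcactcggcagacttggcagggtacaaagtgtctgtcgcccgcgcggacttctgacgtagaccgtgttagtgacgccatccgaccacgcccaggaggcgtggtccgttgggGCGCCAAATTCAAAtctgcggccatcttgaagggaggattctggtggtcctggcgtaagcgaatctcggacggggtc
Mcm6, chr1:128359656-128359955, minus strand: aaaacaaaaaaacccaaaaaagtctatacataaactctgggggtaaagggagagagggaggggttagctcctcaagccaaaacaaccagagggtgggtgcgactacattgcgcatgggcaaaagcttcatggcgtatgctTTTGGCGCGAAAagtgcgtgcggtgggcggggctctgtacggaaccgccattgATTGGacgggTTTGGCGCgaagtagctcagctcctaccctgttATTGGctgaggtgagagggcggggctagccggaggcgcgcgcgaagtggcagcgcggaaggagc
Cdt1, chr8:122567765-122568064, plus strand: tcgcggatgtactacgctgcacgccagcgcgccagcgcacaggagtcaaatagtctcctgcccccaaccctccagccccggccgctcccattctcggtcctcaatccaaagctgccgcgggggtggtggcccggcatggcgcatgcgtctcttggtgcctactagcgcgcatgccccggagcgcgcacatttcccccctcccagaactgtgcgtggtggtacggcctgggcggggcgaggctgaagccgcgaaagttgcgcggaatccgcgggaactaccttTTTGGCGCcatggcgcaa
Mki67 had CHR matches 116 and 98 bases before its start, and Top2a had 4 of them among 6 CCAAT boxes. In Kif15 an E2F match and a CHR match lie next to each other, just before the start. Mcm6, a subunit of the replicative helicase, showed 3 E2F matches, of which a pair on opposite strands overlap, and Cdt1, which loads that helicase, showed 1 after its start. A match is a run of letters and does not show that a factor binds there.

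Members made up a slightly smaller share of nuclei in KO. They were 5.19% of kept nuclei in KO (4.80 to 5.6) and 5.92% in WT (5.44 to 6.43), a ratio of 0.876 with an interval of 0.779 to 0.986. Of the nuclei that met the epithelial conditions they were 14.05% in KO and 16.19% in WT, a ratio of 0.868. When every nucleus was first thinned to 500 UMIs, 1.35% of KO and 1.53% of WT nuclei were members, and the interval of the ratio, 0.699 to 1.12, then included 1. In pooled and sorted nuclei a share also depends on how many nuclei of each kind survived isolation, which the files do not show.

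Before the other genes, the targeted gene was read in members. Pink1 had 3 counts in KO members and 13 counts in WT members, or 2.29 and 11.1 CPM, a ratio of 0.207 (0.0379 to 0.754). The gene lies at chr4:138313409-138326307 on the minus strand. In other epithelial nuclei it had 51 counts in KO and 67 in WT, or 7.14 and 12.4 CPM, a ratio of 0.575 (0.391 to 0.840). The library labelled KO thus retained some Pink1 counts, and the labels do not say which part of the gene was removed.

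The 10 rule genes differed between the libraries in both directions, while their sum was nearly even at 0.967 of WT. Top2a, the topoisomerase that untangles replicated DNA, had 1255 counts in KO and 866 in WT members, or 958 and 736 CPM, and was 1.30-fold higher in KO (1.19 to 1.42). Kif15, a spindle motor, had 617 and 383 counts and was 1.45-fold higher (1.27 to 1.65). Neil3 was 1.33-fold higher in KO, with 393 and 265 counts. Cenpf, Cenpe and Mki67 went the opposite way. Cenpf, a large kinetochore protein, had 979 counts in KO and 1267 in WT members, or 748 and 1078 CPM, and stood at 0.694 of WT (0.637 to 0.755). Cenpe had 538 and 607 counts and stood at 0.796, and Mki67, which coats mitotic chromosomes, had 1935 and 2069 counts and stood at 0.840 (0.789 to 0.894). Knl1, the scaffold of the outer kinetochore, had 618 and 527 counts and a ratio of 1.05. The ratios of Esco2 (1.13), Kif23 (1.10), a motor of cell separation, and Prc1 (0.958; 2.04 with every nucleus thinned to 500 UMIs) had intervals that include 1, as did that of Knl1. Since a high count of any of these genes helps a nucleus become a member, the ratios of Top2a, Kif15, Cenpf and Mki67 were also taken with the gene left out of its own rule. They were then 1.29 for Top2a, 1.48 for Kif15, 0.651 for Cenpf and 0.791 for Mki67, and the other 6 genes were not taken this way.

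Most of these ratios lay on the same side of 1 within each phase class. Cenpf stood at 0.646 of WT among S-leaning and at 0.706 among G2/M-leaning members, and Top2a at 1.28 and 1.31. Kif15 was 1.61-fold and 1.45-fold higher in KO in the same classes. Mki67 differed between the classes, at 1.08 (0.930 to 1.25) among S-leaning and 0.832 (0.769 to 0.899) among G2/M-leaning members. Neil3, at 1.09 and 1.51, and Kif23, at 1.32 and 1.01, also differed by class, and no difference between classes was tested.

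**Figure D3:**
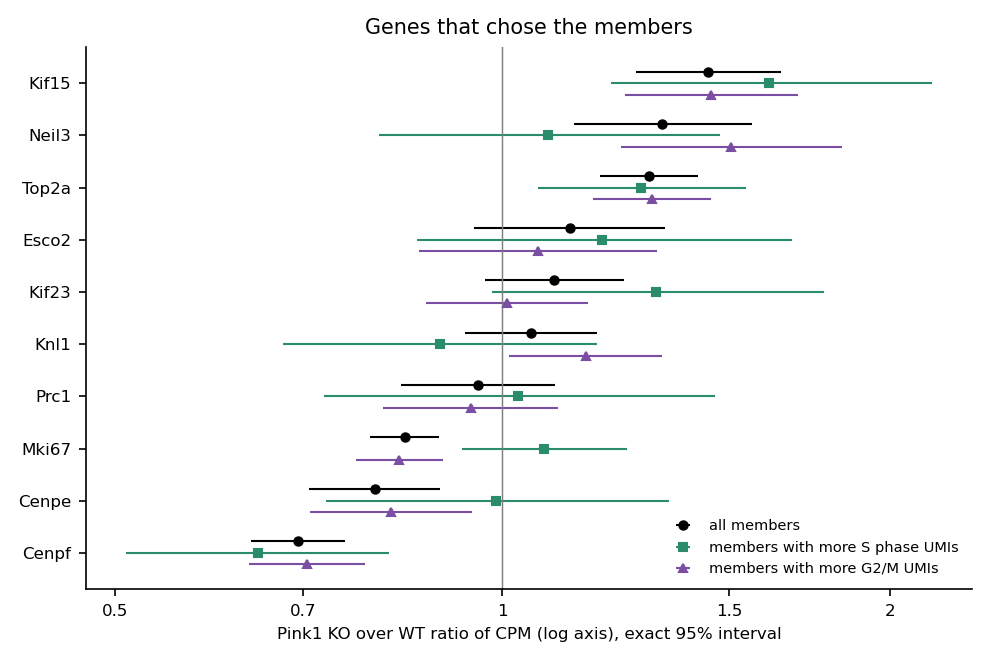
KO over WT ratio of CPM (log axis) of the 10 rule genes in all members and in S-leaning and G2/M-leaning members, with exact 95% intervals that cover counting error only. For all members Kif15, Neil3 and Top2a lie above 1, and Cenpf, Cenpe and Mki67 below it.

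Outside the rule, division genes were slightly higher in KO members as a body. Of 239 cell-cycle genes with at least 50 counts in members of both libraries together, 21 (8.79%) were at least 1.5-fold higher and 3 (1.26%) at least 1.5-fold lower in KO. Over all 7872 genes with that many counts, 5.08% were at least 1.5-fold higher and 5.97% at least 1.5-fold lower. The lists' sum was 1.10 times the WT level (1.08 to 1.12) and their median log2 ratio was 0.15, beside -0.02 over all genes. In other epithelial nuclei, where 5.04% of 11417 genes were higher and 5.71% lower in KO, 14 of 186 cell-cycle genes were higher and 3 lower. Of the 21 higher genes, the 17 whose interval excludes 1 were recomputed under the alternatives. Among these, 6 stayed at least 1.5-fold higher under every alternative in which they had enough counts: Foxm1, E2f2, Cdt1, Mcm4, Pold1 and Nuf2. Mcm4 had enough counts in 13 alternatives and the others in 15, against 17 for Egr1, so they were not seen under all settings. The other 11 fell below 1.5-fold under at least one alternative.

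By summed level, replication genes stood slightly above mitotic genes. By median log2 ratio the lists overlapped, at 0.22 for replication fork and 0.13 for origin licensing genes. Mitotic kinase genes stood at 0.15, kinetochore genes at 0.14 and spindle genes at 0.05. The S phase list summed to 1.13 times its WT level and the G2/M list to 1.04 times, beside 1.01 and 1.05 times in other epithelial nuclei. Within the phase classes the S phase list stood at 1.02 (0.963 to 1.07) among S-leaning and 1.13 (1.07 to 1.19) among G2/M-leaning members. The G2/M list stood at 1.11 and 1.02 in the same classes. Replication fork genes summed to 1.19 times WT (1.13 to 1.26), with 4 of 23 at least 1.5-fold higher and a sum of 1.06 (0.979 to 1.15) among S-leaning members, and origin licensing genes to 1.13 times, with 3 of 18 higher. Mcm4, a helicase subunit, had 45 counts in KO and 17 in WT members, a ratio of 2.38 (1.33 to 4.43). Cdt1 had 78 counts in KO and 39 in WT, giving 1.79 (1.21 to 2.71), and the polymerase subunit gene Pold1 had 67 and 34, giving 1.77. Tk1, the thymidine kinase of S phase, had 148 and 84 counts (1.58), and the primase genes Prim1 (122 and 73 counts, 1.5) and Prim2 (133 and 77 counts, 1.55) stood close to it. Among repair genes, 3 of 23 were higher, namely Exo1 (1.62), Fancd2 (1.53) and Fanci (1.66), and each fell below 1.5-fold under an alternative (Exo1 1.31 without the Muc2 ceiling, Fancd2 1.45 and Fanci just under the line with doublets removed). No gene of these 4 lists was at least 1.5-fold lower in KO. The chromatin list had none past that fold in either direction.

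The regulators of the cycle showed the same lean. Of 26 measured E2F and cell-cycle entry genes, 4 were at least 1.5-fold higher and 0 lower. Foxm1, the factor of late cell-cycle genes, which lies at chr6:128362967-128376146, had 113 counts in KO and 51 in WT members, a ratio of 1.99 (1.42 to 2.83). E2f2, an activating E2F, had 120 and 60 counts (1.79). E2f7, a repressing E2F, had 171 and 98 counts (1.57). The fourth was Cdkn1a, the p21 inhibitor of division, with 64 and 36 counts (1.6). Both activators and inhibitors of the cycle were thus among the higher genes. Cdkn1b, the p27 inhibitor, had 337 and 369 counts and a ratio of 0.820.

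Spindle and kinetochore genes were close to even in sum, with exceptions in both directions. They summed to 1.01 and 1.02 times WT, and the mitotic kinase list to 1.09 times. Members of both libraries had passed the same threshold over mostly mitotic genes, whose sum was 0.967 of WT. How far this set the level of other mitotic genes was not tested. Hjurp, of the kinetochore list, stood at 0.905 of WT, but at 1.38 with every nucleus thinned to 500 UMIs. Of 32 measured kinetochore genes, 5 were at least 1.5-fold higher. Nuf2, a microtubule-binding arm of the kinetochore, had 88 counts in KO and 39 in WT members, a ratio of 2.03 (1.37 to 3.03), and Cenph had 120 and 66 counts (1.63). Cenpq (1.62), Cenpt (1.61) and Ska1 (1.57) were the others, each with an interval that includes 1. The condensin subunit gene Ncaph2 had 106 and 59 counts (1.61). The 3 division genes at least 1.5-fold lower in KO were mitotic. Hmmr, a spindle assembly factor at chr11:40701395-40733422, had 111 counts in KO and 154 in WT members, a ratio of 0.647 (0.502 to 0.831), and Dlgap5, which stabilises spindle microtubules, had 89 and 122 counts (0.655). The third was Gas2l3, a cytoskeletal linker of the separating cell, with 78 and 108 counts (0.648). No measured mitotic kinase was past 1.5-fold in either direction, of 25. Mitosis genes with lower ratios thus sat beside Cenpf and Cenpe, while Nuf2 and Kif15 of the same structures were higher.

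**Figure D4:**
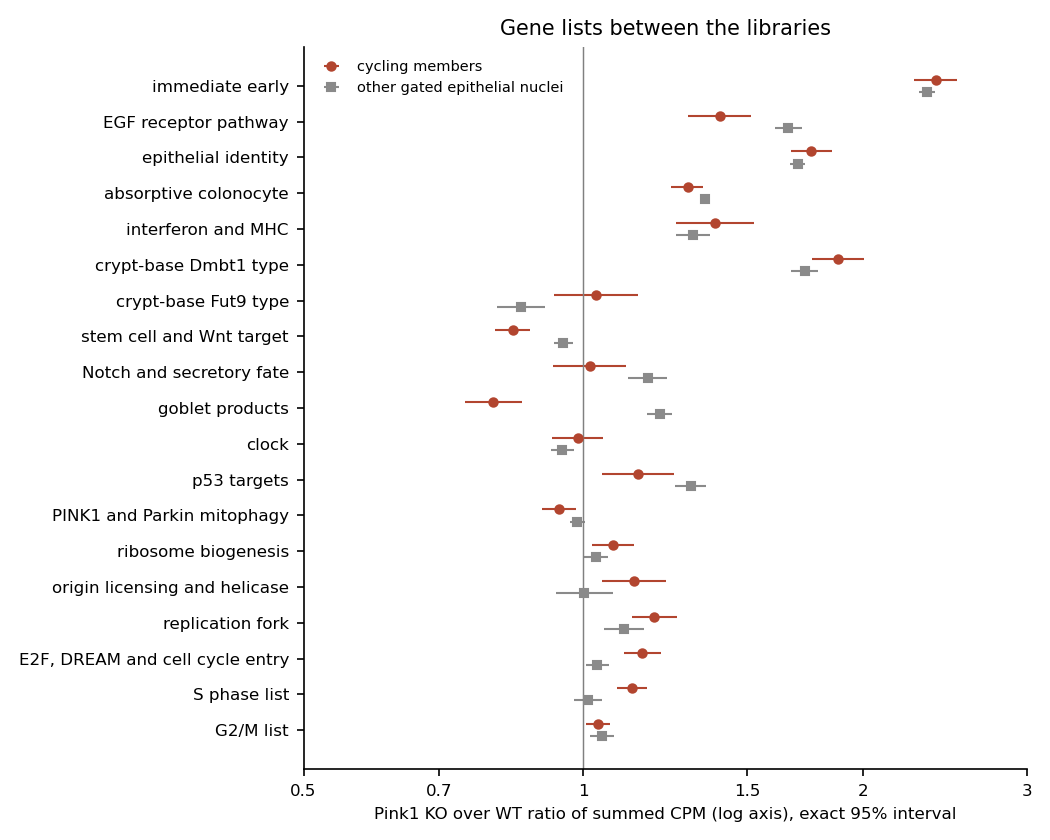
KO over WT ratio of the summed CPM (log axis) of each gene list in members (red circles) and in other epithelial nuclei (grey squares), with exact 95% intervals that cover counting error only. The immediate early list stands at 2.39 in members and 2.35 in other nuclei, and goblet products at 0.80 and 1.21.

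The largest differences between the libraries lay outside the division programme, in genes that respond within minutes to a stimulus. Of 18 measured immediate early genes, 12 (66.7%) were at least 1.5-fold higher in KO members and 0 lower, and the list summed to 2.39 times its WT level (2.27 to 2.52). Over all genes in members, 5.08% were at least 1.5-fold higher and 5.97% lower. The counts of every list below stand beside these shares. In other epithelial nuclei 21 of 27 (77.8%) were higher, with a sum of 2.35 times WT, so that the size was alike inside and outside the members. Egr1, a zinc-finger factor induced by growth signals, had 1394 counts in KO and 36 in WT members, or 1064 and 30.6 CPM, a ratio of 34.8 (25.0 to 49.8). Fos, a subunit of the AP-1 factor, had 444 and 41 counts (9.72, interval 7.05 to 13.7). The 1000-UMI shares of members with an Egr1 UMI were 54.9% in KO and 2.94% in WT, and those of non-epithelial nuclei were 48.4% and 4.15%. For Fos the shares were 23.0% in KO and 2.52% in WT members beside 23.6% and 1.90% of non-epithelial nuclei. These shares were of similar size in non-epithelial nuclei and in members, so expression by members and free RNA cannot be told apart from them. Junb (2.82), Klf10 (2.86), Ier2 (2.09), Btg2 (1.95), Zfp36 (1.85) and Jund (1.58) were also at least 1.5-fold higher, while Jun (1.21) and Klf6 (1.25) were below 1.5-fold. Klf4, of the same list, was lower in KO members, at 0.808 (0.672 to 0.971).

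The highest genes also included ligands of the EGF receptor, beside genes with other roles. The EGF-receptor ligand Hbegf had 267 counts in KO and 40 in WT members, a ratio of 5.99 (4.29 to 8.58), and its relative Areg had 46 and 6 counts (6.88, interval 2.93 to 19.7). Sgk1, a kinase of sodium uptake, had 281 and 58 counts (4.35), and Txnip, a brake on glucose uptake, 1718 and 509 counts (3.03). H3f3b, which encodes the replication-independent histone H3.3, had 2086 and 481 counts (3.89, interval 3.52 to 4.31). In other epithelial nuclei the same ratios were 5.87 for Hbegf, 3.34 for Areg, 6.19 for Sgk1, 2.92 for Txnip and 4.11 for H3f3b. Of the EGF-receptor pathway list, 5 of 13 genes were at least 1.5-fold higher and 0 lower. Besides the ligands these were the receptor gene Erbb2 (136 and 80 counts, 1.53) and the feedback inhibitors Errfi1 (158 and 81 counts, 1.75) and Dusp6 (66 and 35 counts, 1.69).

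**Figure D5:**
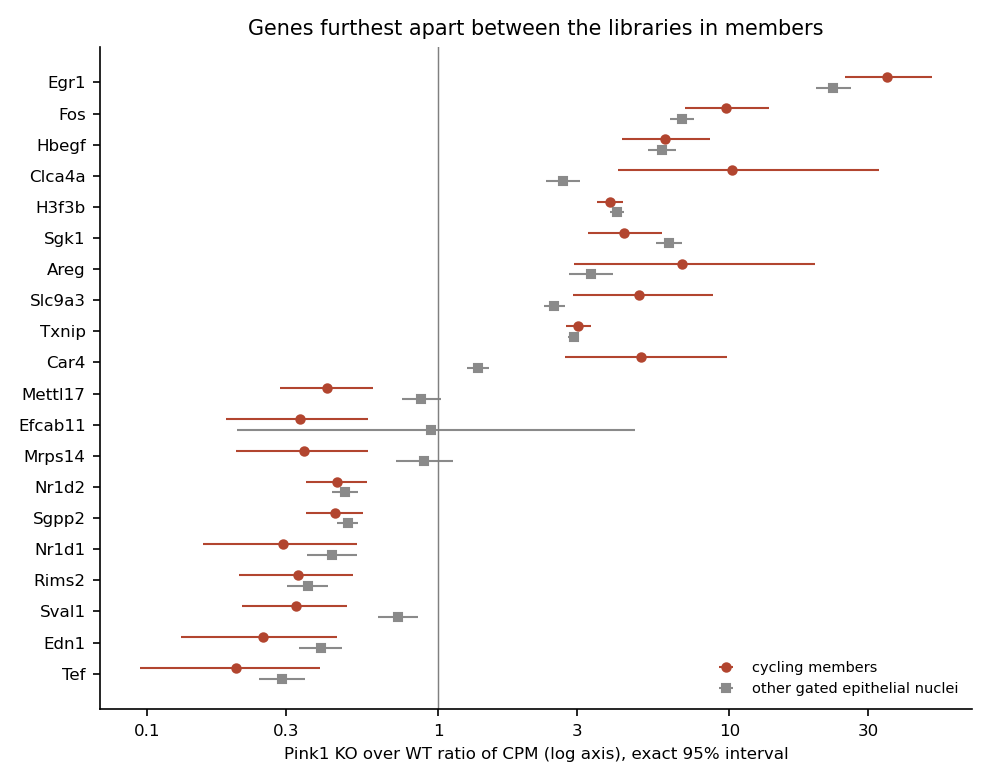
KO over WT ratio of CPM (log axis) of the 10 highest and 10 lowest genes in members (red circles), ordered by the interval bound nearest to 1, beside the ratio of the same genes in other epithelial nuclei (grey squares); lines are exact 95% intervals for counting error. Egr1 stands at 34.8 in members and Tef at 0.202.

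Epithelial structure genes were also higher in KO. The epithelial identity list summed to 1.76 times WT (1.68 to 1.85) in members and 1.70 times in other nuclei, with 5 of 11 genes at least 1.5-fold higher in members. The keratin Krt8 had 1153 counts in KO and 387 in WT members, a ratio of 2.67, and its partner Krt18 a ratio of 2.61. Krt19 (2.25), the epithelial factor Elf3 (2.00) and the intestinal homeobox gene Cdx1 (1.84) made up the rest. Dmbt1, at chr7:131032053-131121630, had 2824 and 1282 counts (1.98, interval 1.85 to 2.11), while the other crypt-base marker Fut9 had 656 and 543 counts (1.08).

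Colonocyte genes leaned higher in KO members. Of 16 measured absorptive genes, 7 were at least 1.5-fold higher and 1 lower in KO, and the list summed to 1.30 times WT in members and 1.35 times in other epithelial nuclei. Ceacam1, an adhesion molecule of the surface, had 1400 counts in KO and 651 in WT members (1.93), and Krt20, a keratin of mature cells, a ratio of 2.65. Car2, a carbonic anhydrase, was the lower gene with 343 and 462 counts (0.666), and passed 1.5-fold only narrowly. Car4, Clca4a and Slc9a3, all among the 10 highest ratios, were at low levels. Car4, a membrane carbonic anhydrase, reached 55 CPM in KO and 11.1 CPM in WT members, beside 35.0 and 32.8 CPM in non-epithelial nuclei. Clca4a reached 43.5 and 4.25 CPM, beside 13.3 and 11.3 CPM. The sodium exchanger Slc9a3 had 93 and 17 counts, of which 1 nucleus gave 16.1% in KO and 23.5% in WT. For Car4 and Clca4a, WT members lay below non-epithelial nuclei. The level in non-epithelial nuclei is thus not a measure of free RNA alone, and free RNA was not measured separately.

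Stem cell and Wnt target genes leaned the other way by a small amount. Their sum in members was 0.840 of WT (0.804 to 0.877), against 0.952 in other epithelial nuclei, and 0 of 18 were past 1.5-fold in either direction. The interval lay below 1 for 4 of the 18 and above 1 for 1, Prom1, at 1.32. Slc12a2, a chloride cotransporter of the lower crypt, had 1237 counts in KO and 1534 in WT members, a ratio of 0.724 (0.671 to 0.781). It weighed heavily in the sum, as the whole list had 4024 and 4302 counts. For the Wnt feedback gene Axin2 the counts were 73 in KO and 92 in WT (0.712, interval 0.517 to 0.979), and the BMP co-receptor gene Rgmb had 333 and 394 counts (0.759). Lgr5 (90 and 91 counts, 0.888) and Smoc2 (104 and 104 counts, 0.898) had intervals that include 1. Of 9 measured Notch pathway and secretory fate genes, Hes1, the Notch effector that favours absorptive fate, had 419 counts in KO and 242 in WT (1.55) and was the 1 gene at least 1.5-fold higher, though at 0.862 with every nucleus thinned to 500 UMIs. The 3 lower ones were Foxa2, Spdef and Bcas1. Foxa2, a factor of secretory cells, had 91 and 148 counts (0.552, interval 0.420 to 0.722). Spdef, a goblet cell factor, had 22 and 30 counts (0.659), with an interval that includes 1. Bcas1 had 19 and 33 counts (0.517, but 0.953 without the Muc2 ceiling).

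Circadian genes were among the lowest in KO members. Of 9 measured clock genes, 4 were at least 1.5-fold lower and 2 higher in KO members. Tef, an output factor of the clock, had 11 counts in KO and 49 in WT members (0.202, interval 0.0945 to 0.393). The repressor genes Nr1d1, with 16 and 49 counts, and Nr1d2, with 106 and 212 counts, stood at 0.293 and 0.449, and Cry2, a core clock repressor, had 22 and 38 counts (0.520). Per1, another such repressor that is also induced by acute stimuli, had 36 and 7 counts (4.62), although these fall short of the 50 counts asked for the list. Per2 (51 and 26 counts, 1.76) and Bhlhe40 (318 and 190 counts, 1.5) were the higher genes, Bhlhe40 being at 1.38 with every nucleus counted alike, and Clock stood at 1.06. The ratios of Tef, Nr1d1 and Nr1d2 in other epithelial nuclei were 0.292, 0.433 and 0.478. Edn1, which encodes the peptide endothelin, was also among the 10 lowest, with 15 and 54 counts (0.249). Rims2 (29 and 79 counts, 0.330), Sval1 (34 and 94 counts, 0.325, and 0.613 without the Muc2 ceiling) and Sgpp2, a phosphatase of sphingosine phosphate (116 and 236 counts, 0.441), were there too. Mrps14, Efcab11 and Mettl17 completed the low end, at 0.346, 0.334 and 0.416 in members beside 0.897, 0.944 and 0.876 in other epithelial nuclei, where Efcab11 had only 5 counts in KO and 4 in WT. The hour of tissue collection is not in the sources used here, and its part in these values was not tested.

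Mitochondrial quality-control genes, the pathway in which Pink1 acts, were near even. Of 30 measured mitophagy and mitochondrial dynamics genes, 2 were at least 1.5-fold higher and 2 lower in KO members (6.67% each way, near the 5.08% and 5.97% of all genes), and their sum was 0.941 of WT. The higher ones were Rhot2, a mitochondrial transport GTPase (74 and 38 counts, 1.75), and the ubiquitin ligase gene March5 (95 and 56 counts, 1.52, but 1.37 with doublets removed). The lower ones were Bnip3l, a mitophagy receptor (61 and 86 counts, 0.637, but 0.737 with doublets removed), and the inner-membrane protease gene Oma1 (22 and 38 counts, 0.520). Interferon and antigen presentation genes were higher in 4 of 8 cases and lower in 0. Among these were Irf1, an interferon-response factor (214 and 127 counts, 1.51), and Iigp1, an interferon-induced GTPase (41 and 15 counts, 2.45).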

How the data were processed

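The authors deposited UMI counts per gene and nucleus from 10x 3' libraries. Per the file headers Cell Ranger 6.1.2 wrote the tables, and the submitters' processing notes name mm10 (GRCm38). The sources used here do not say which annotation release was counted, nor how introns, strand and doublets were handled. Reads of overlapping or antisense genes therefore cannot be told apart. The members and gene lists were chosen with earlier results of these data known. Barcodes with at least 500 UMIs, 300 genes and at most 10% mitochondrial UMIs were kept. Counts were summed over the members of each library and divided by their total. Shares have Clopper-Pearson and ratios exact conditional binomial 95% intervals. Doublets, taken as the highest Scrublet scores at 0.8% per 1000 barcodes, were removed only as an alternative.

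Named genes were the 10 rule genes and Pink1, the 10 highest and 10 lowest KO over WT ratios by the interval bound nearest to 1, and the 15 highest and 10 lowest of members over other epithelial nuclei, with at least 50 counts. Of each list, the 4 with the most counts and those at least 1.5-fold apart could be named. A few others (among them Lgr5, Smoc2, Axin2, Per1, Fut9, Cdkn1b and the low-fold immediate early genes) were chosen after their values were seen. Alternatives covered the filters, threshold, rule genes, Muc2 ceiling, doublets, depth, scaling, weighting and count minimum. Leaving Kif15 out of the rule, keeping nuclei without a mitochondrial UMI and taking totals without immediate early genes were added after seeing the data. Gene positions came from GENCODE M21, for 32235 of 32285 IDs, and promoters from RefSeq. The tools were Python 3.11.15, NumPy 2.4.6, SciPy 1.17.1, pandas 2.3.3, Scanpy 1.11.5 and Matplotlib 3.10.9, and the ratio code was tested on simulated data.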

Additional observations from a re-analysis of the deposited data

Results flagged for a closer look

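In 5 cases the KO over WT ratio lay below 1 in members and above 1 in other epithelial nuclei with neither interval including 1. The difference between members and other nuclei was not tested, since each genotype has 1 library. Goblet products summed to 0.80 of WT in members (0.745 to 0.859) and to 1.21 times WT in other nuclei (1.17 to 1.25). Neither this sum nor the fibroblast sum below was recomputed under the alternatives. Of 11 measured goblet genes, 5 were at least 1.5-fold lower and 1 higher in KO members, the higher one being Zg16 at 1.73 (1.02 without the Muc2 ceiling). Within that list the secreted lectin gene Reg4 stood at 0.581 (0.363 to 0.918) in members and 1.30 in other nuclei, and Mptx1 at 0.583 (0.485 to 0.699) and 1.09, but Mptx1 turned to 1.67 in members under a threshold of 2 rule-gene UMIs. The summed goblet level in members was that of non-epithelial nuclei. Klf4, a factor of differentiated cells and goblet maturation, had 225 counts in KO and 250 in WT members, a ratio of 0.808 (0.672 to 0.971), beside 1.16 in other nuclei. The fibroblast markers, among which the excluded Col3a1 is at 0 by the rule, at 23.7 CPM in KO and 38.3 CPM in WT members, had a ratio of 0.618 (0.378 to 0.999), beside 1.54 in other nuclei.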

How the results depend on the processing

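No paired analysis was possible because each genotype has 1 library, and for the same reason no replicate could be left out. For the 12 summary results, 176 alternative values were counted as unchanged, 20 as moved and 0 as turned round. For 200 single genes, 2881 values were counted as unchanged, 133 as moved and 13 as turned round. Another 376 fell under the count minimum and were not computed. Only results whose main interval excludes 1 could count as turned round, so an unchanged value could lie on the other side of 1. The KO over WT ratio of the G2/M-leaning share was 0.93 (0.791 to 1.09). It was 1.02 with phase called at 500 UMIs and 1.08 in nuclei without a mitochondrial UMI, both inside that interval. Thinning every nucleus to 500 UMIs before the rule, which left 164 KO and 136 WT members, gave KO over WT ratios of 1.75 for the immediate early sum, 1.40 for the S phase list, 1.18 for the G2/M list and 1.40 for epithelial identity. It left 1 immediate early gene at least 1.5-fold higher in KO, and 55 KO and 34 WT cell-cycle genes higher in members, as fewer genes then had enough counts. Thinning members to 1000 UMIs gave 2.19, 1.18 and 1.64 for the immediate early, S phase and identity sums, and 131 cell-cycle genes in WT. With nuclei free of mitochondrial UMIs only (53 KO and 134 WT members), the S-leaning share ratio was 0.941, the S phase list 1.23, the G2/M list 1.10 and identity 1.97, with 2 immediate early genes and 38 KO and 73 WT cell-cycle genes. Counting every nucleus alike gave 2.22 for the immediate early sum, and the S-leaning share ratio at 500 UMIs was 0.961. The cause of the moves in ratios was not tested. Of 85 single genes past 1.5-fold between the libraries, 46 stayed past it under every alternative computed and 39 did not. Mptx1 turned to 1.67 under a threshold of 2 UMIs. At 500 UMIs Hjurp turned to 1.38, Wapl to 0.984, Hes1 to 0.862, Hoxa9 to 1.43 and Cldn7 to 0.859. In nuclei without a mitochondrial UMI Pink1 turned to 1.26, Hells to 0.925, Hmgb2 to 0.997, Hjurp to 1.05, Klf6 to 0.689, Gnl3 to 0.953 and Utp20 to 1.31. The share of members had ratios of 0.788 to 0.906 over all alternatives.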

Other observations

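The position code of the colon was close to even between the libraries. Of 18 measured Hox genes, which mark the place of a cell along the gut, 0 were at least 1.5-fold higher and 1 lower in KO members. That gene was Hoxa3, with 197 counts in KO and 276 in WT members, a ratio of 0.641. Of 12 measured p53 target genes, 3 were at least 1.5-fold higher and 1 lower, and the list summed to 1.14 times WT. Over all genes 5.08% were higher and 5.97% lower. In other epithelial nuclei 4 of 18 p53 target genes were higher and 1 lower, with a sum of 1.305 times WT, so the lean was not particular to members. Within members the damage-response gene Gadd45a had a ratio of 2.06. Ribosome biogenesis genes had 0 of 19 past 1.5-fold in either direction and summed to 1.08 times WT.

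Markers of tuft cells, the chemosensory cells of the epithelium, summed to 54.2 CPM in KO and 11.9 CPM in WT members, from 71 and 14 counts. Dclk1, a tuft cell kinase that is also expressed in other tissues, gave 27 counts in KO and 3 in WT. The list lay below its level in non-epithelial nuclei, 373.8 CPM in KO and 271.1 CPM in WT, and in other epithelial nuclei, 74.8 and 53 CPM.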
